A study of Homo sapiens with 4 samples.

Results

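The p53 target genes followed here are 30 genes of the p53 pathway, taken as a fixed list of symbols from the 23004 gene names in the expression tables, and all 30 were found. They were measured by RNA sequencing in BEAS-2B, a human cell line derived from normal bronchial epithelium and immortalized. The study compared 2 untreated libraries with 2 libraries of cells exposed to formaldehyde, a DNA-protein crosslinking aldehyde, and its title links formaldehyde to cell transformation and chromatin assembly. Both exposed libraries had 100 µM for 48 h; the treatment label gives this dose and time, and the agent is named in the series title and design. The labels do not say whether the 2 libraries of a group came from separate cultures, so p-values speak to library-to-library spread only, possibly a technical one. As background, BEAS-2B cells were immortalized with a hybrid of adenovirus and SV40, and the large T antigen of SV40 binds p53, which limits the line as a model of the p53 response.

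p53 is a transcription factor that is kept low by MDM2 and stabilized when kinases of the DNA damage response modify it. It binds DNA as a tetramer at paired half-sites and switches on genes that halt the cell cycle, repair DNA, trigger apoptosis or adjust metabolism, together with genes, MDM2 among them, that turn p53 off again. Airway epithelial cells carry this response as a guard against inhaled genotoxic agents.

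Values are FPKM (mapped fragments per kilobase of transcript, scaled to a common sequencing depth), a level per length that can be set side by side between genes, added up for each gene over its transcripts. Deposited bounds gave a depth of 16.7 and 26.3 M fragments (M, mega) for untreated replicates 1 and 2, and of 14.1 and 22.0 M for formaldehyde replicates 1 and 2. The 12407 genes with a mean of at least 1 FPKM were tested, and 28 of the 30 members passed this filter; EDA2R and SPATA18 did not. The fragments behind a tested member in 1 library numbered 31 to 12010. Of the epithelial markers KRT8, KRT18, KRT7 and CLDN1 were expressed, KRT18 at 206 to 418 FPKM, whereas KRT5 was listed at 0 in all 4 libraries and CDH1 stayed between 0.06 and 0.63 FPKM. Of the leukocyte genes CD3E was listed at 0 throughout, while CD14 ranged from 1.77 to 11.98 FPKM and CORO1A from 1.53 to 4.75 FPKM. CD68, a lysosomal protein of macrophages and other cells, had 12.8 and 16.4 FPKM untreated and 42.8 and 22.0 FPKM exposed. Among fibroblast and endothelial markers COL1A1 was present at 137 to 568 FPKM.

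The members were mostly higher in formaldehyde replicate 1 than in every other library, and formaldehyde replicate 2 lay close to the untreated libraries. Formaldehyde replicate 1 held the highest value of 24 of the 28 tested members, against 26.3% of all genes tested, and untreated replicate 2 held the highest value of the other 4 (GADD45A, PLK2, PPM1D and MDM4), against 22.7% of all genes. In log2(FPKM + 1), the median member lay 0.98 above the untreated mean in formaldehyde replicate 1 and 0.03 above it in replicate 2. The median over all genes tested was 0.03 in each. At least 1 log2 unit above the untreated mean stood 12 members in replicate 1, against 2.84% of all genes, and 0 members in replicate 2, against 1.21% of all genes. These 12 were CDKN1A, GDF15, TP53I3, MDM2, FAS, PHLDA3, PLK3, AEN, FDXR, SESN1, DDB2 and TNFRSF10A. Replicate 1 exceeded replicate 2 in 26 of 28 members, against 49.5% of all genes.

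No member passed the test of the group difference. By limma with Benjamini-Hochberg adjustment over all 12407 genes, 0 members were called at an adjusted p under 0.05, against 0.153% of all genes (19 genes). The calls over all genes were 10 higher with formaldehyde (0.0806%) and 9 lower (0.0725%), with 0 members in either direction, and every tested member had an adjusted p of 0.9999. An unadjusted p under 0.05 was reached by 3 members (PLK3, TNFRSF10A and DDB2), against 2.76% of all genes. For a single gene, 0.333 is the smallest two-sided p that exact permutation of these 4 libraries allows. The log2 fold change was above 0 in 24 of the 28 members, against 55.1% of all genes, and its median was 0.49, against 0.03 over all genes. This median came to 0.03 without formaldehyde replicate 1 and to 0.98 without formaldehyde replicate 2.

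**Figure D1:**
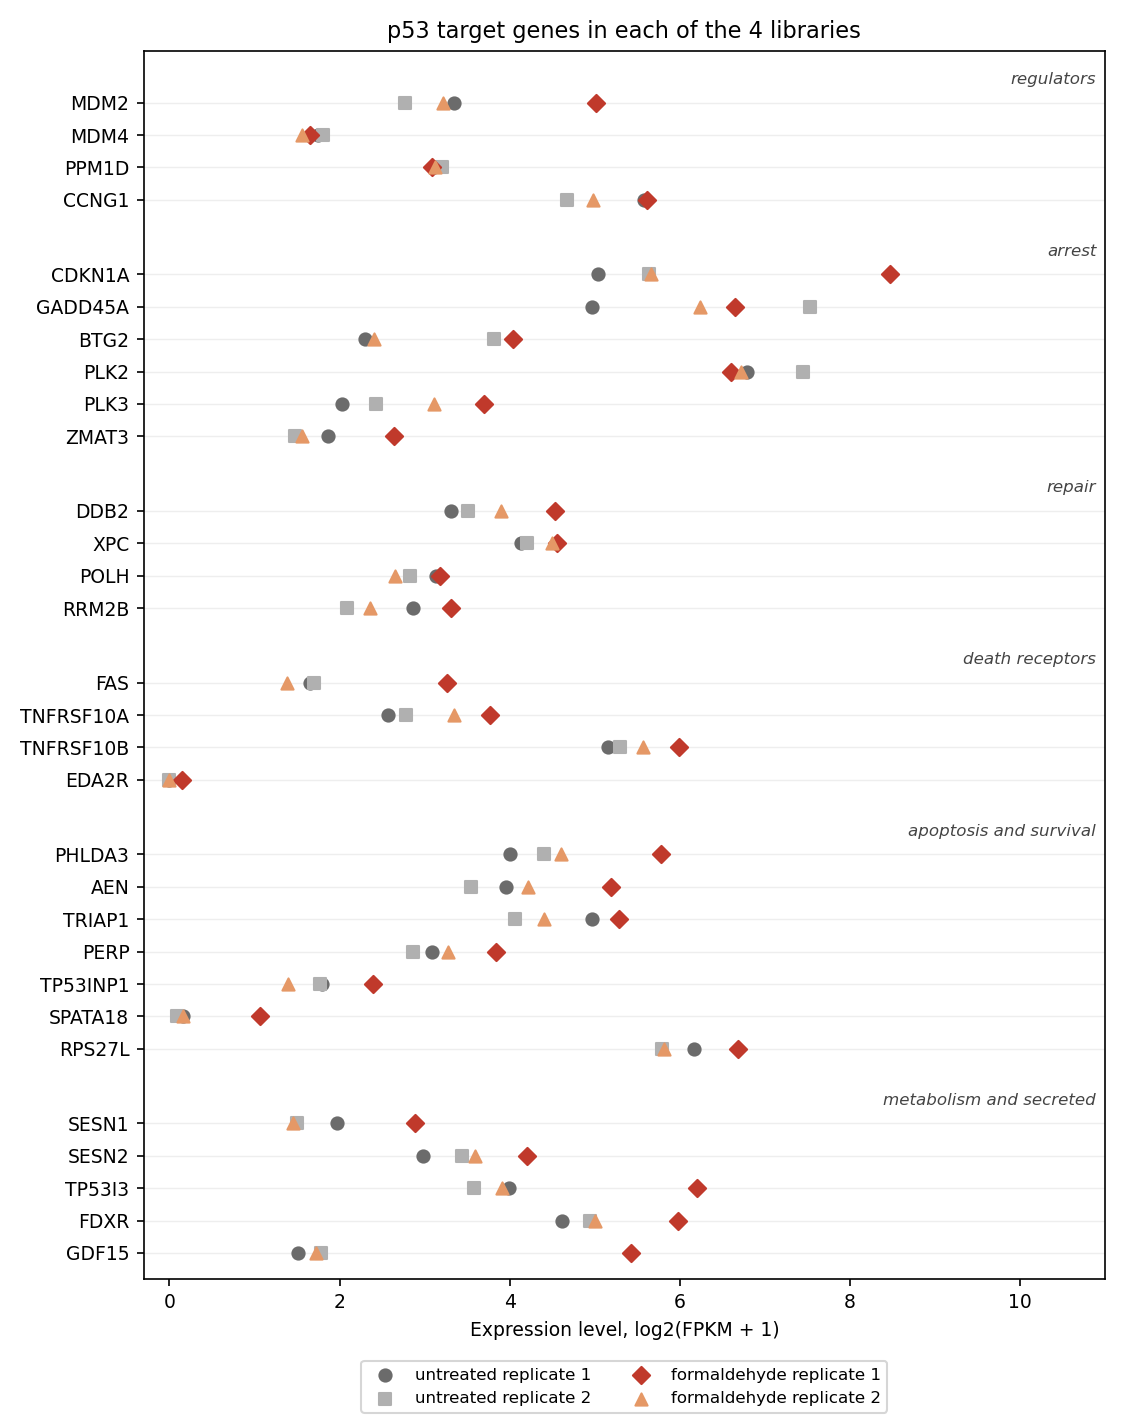
FPKM of each of the 30 members in the 4 libraries, on a log axis and grouped by role, with 1 point for each library. Formaldehyde replicate 1 is the rightmost point for 24 of the 28 tested members; GDF15 reads 42.1 FPKM there and 1.85 to 2.43 FPKM in the other libraries.

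In both formaldehyde libraries, 11 members were higher than in both untreated ones: AEN, CDKN1A, DDB2, FDXR, PERP, PHLDA3, PLK3, SESN2, TNFRSF10A, TNFRSF10B and XPC. They made up 39.3% of the tested members, against 16.2% of all genes. With the libraries scaled by median ratios, 9 members were higher in both, against 14.5% of all genes. After quantile normalization 10 were, against 13.8% of all genes. Leaving out untreated replicate 1 gave 18 members, where 47.0% of all genes were higher, and leaving out formaldehyde replicate 2 gave 24, where 32.9% were. MDM4 and PLK2 were lower in both, which is 7.14% of the members, against 10.7% of all genes. Taken one at a time, replicate 1 was above both untreated libraries in 24 members and replicate 2 in 11, the same 11 as in both together, where all genes gave 32.9% and 31.2%. Replicate 2 lay below both untreated libraries in 6 members (FAS, MDM4, PLK2, POLH, SESN1 and TP53INP1), where all genes gave 19.2%, and between them in 11.

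The deposited bounds, which cover the estimate within 1 library and not the spread between cultures, could be read directly for the 15 members with 1 listed transcript. The lower bound of formaldehyde replicate 1 lay above the upper bounds of the other 3 libraries in 13 of them, the exceptions being PPM1D and POLH. The lower bound of formaldehyde replicate 2 lay above both untreated upper bounds in 4, namely PLK3, DDB2, TNFRSF10A and AEN. The 13 include SPATA18, which did not pass the filter. The same counts were not made over all genes, so whether they are particular to the members was not tested.

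**Figure D2:**
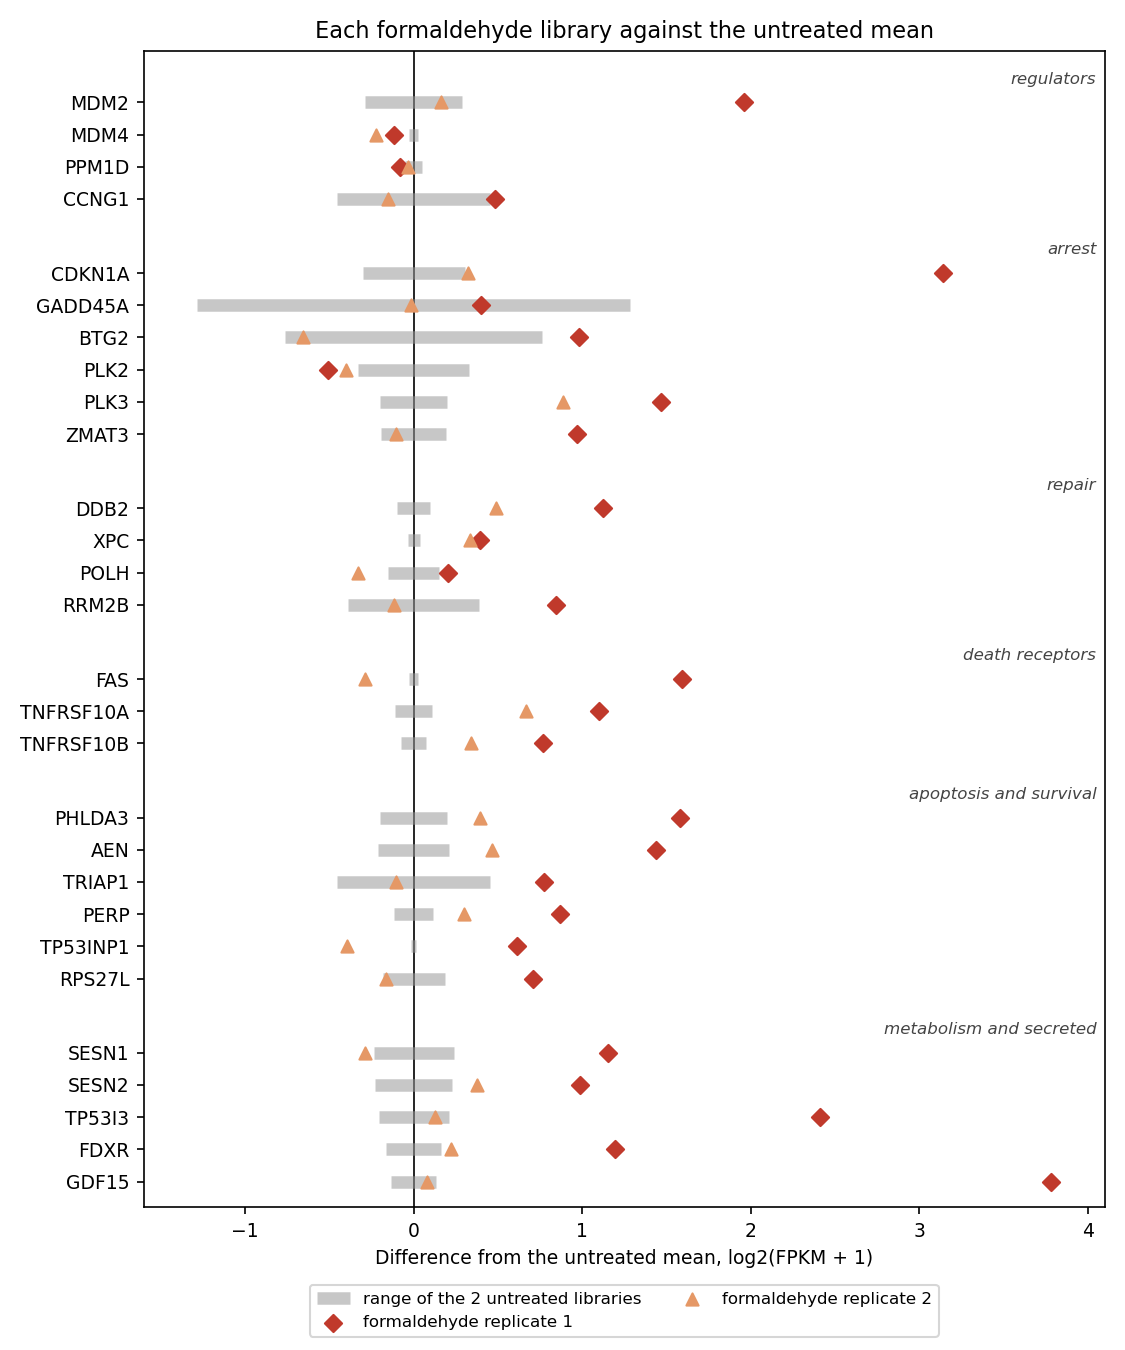
Difference of each formaldehyde library from the untreated mean, in log2(FPKM + 1), for the 28 tested members grouped by role; grey bars span the 2 untreated libraries. Replicate 1 (diamonds) reaches 3.78 for GDF15 and 3.14 for CDKN1A, while replicate 2 (triangles) stays within 0.89 of the untreated mean for every member.

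Promoter sequences are shown first, because 8 of these genes carry letters close to the p53 consensus next to a start site; binding was not measured. RefSeq promoter windows of assembly GRCh38.p14, from 250 bases before to 50 bases after a start, were listed for 24 of the 30 members (36 windows). They were scanned for 2 adjacent 10-base half-sites of the p53 consensus with the core C and G of each half-site kept and at most 3 mismatches in the 20 bases. The consensus is its own reverse complement, so 1 scan covers both strands. Such a stretch occurred in 8 of the 24 members (33.3%), against 1.37% of all 27305 genes with windows, and in 9 of the 36 windows (25%), against 1.12% of all windows. At most 2 mismatches were found in 4 members (DDB2, AEN, FAS and MDM2; 16.7%), against 0.359% of all genes. The stretch was not confined to the members. Windows were also listed for 46 of the further p53 targets outside the 30, described below. Of these 46 genes, 11 (23.9%) held it with at most 3 mismatches and 5 with at most 2. Whether the members differ from these other targets was not tested. The matching 20 bases are in capitals, 5′ to 3′ on the strand of the gene:
DDB2: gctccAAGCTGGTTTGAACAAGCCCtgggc
AEN: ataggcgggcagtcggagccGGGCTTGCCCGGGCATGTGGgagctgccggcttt
FAS: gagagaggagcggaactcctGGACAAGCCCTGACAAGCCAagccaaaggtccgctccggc
MDM2: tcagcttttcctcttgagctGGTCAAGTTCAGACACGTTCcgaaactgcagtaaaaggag
FDXR: ggcccGGGCAGGAGCGGGCTTGCCCtgcgg
GDF15: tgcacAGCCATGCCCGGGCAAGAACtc
RPS27L: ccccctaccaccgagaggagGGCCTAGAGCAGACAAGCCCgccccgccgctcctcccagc
SESN1: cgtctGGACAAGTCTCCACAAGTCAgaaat

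The DDB2 stretch, printed from chr11:47214964-47214993 on the plus strand, had 1 mismatch and ran across the start, from base -5 to base 15. Those of AEN (chr15:88621286-88621339, plus strand, bases -34 to -15), FAS (chr10:88991289-88991348, plus strand, bases -122 to -103) and MDM2 (chr12:68808903-68808962, plus strand, bases -94 to -75 from the first of its overlapping starts) had 2 mismatches. The other 4 had 3 mismatches. FDXR (chr17:74872991-74873020, minus strand) held it at bases -21 to -2 and RPS27L (chr15:63157507-63157566, minus strand) at bases -69 to -50. SESN1 (chr6:109009013-109009042, minus strand) held it at bases -49 to -30 of 1 of its windows, and GDF15 (chr19:18386181-18386207, plus strand) at bases 29 to 48, past the start. A match is a description of letters in this window; sites farther away were not searched.

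The 8 members with a match lay between 0.71 and 3.78 above the untreated mean in formaldehyde replicate 1, in log2(FPKM + 1), with a median of 1.32. The 14 other tested members with a window ranged from -0.51 to 3.14, with a median of 0.82. These ranges overlap, and CDKN1A, at 3.14, was among the members without a match. In formaldehyde replicate 2 the medians were 0.12 and -0.07.

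Of the 4 regulators that act back on p53 or its phosphorylation, MDM2 was far higher in 1 formaldehyde library and the other 3 were not. MDM2, the ubiquitin ligase that marks p53 for degradation, had 9.15 and 5.82 FPKM in untreated replicates 1 and 2 and 31.4 and 8.30 FPKM in formaldehyde replicates 1 and 2. Replicate 1 was 4.19 times the untreated mean, with deposited bounds of 30.3 to 32.5 FPKM, and replicate 2 lay between the untreated libraries. The group means were 7.48 ± 2.35 and 19.8 ± 16.3 FPKM (SD, n = 2 each), a log2 fold change of 1.06 ± 0.63 (SE).

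MDM4, the MDM2 relative that masks the activation domain of p53, read 2.37 and 2.49 FPKM untreated, then 2.16 and 1.94 FPKM exposed. Both exposed values were lower, by 0.17 on the log2 scale between group means. Most of this level was assigned to NR_024171, a noncoding record, at 63.1% and 72.4% untreated and 99.997% and 81.3% exposed. The coding NM_002393 had 0.83 and 0.69 FPKM untreated and 6.75e-05 and 0.36 FPKM exposed. The sum is therefore not the level of the coding transcript. PPM1D, the WIP1 phosphatase that reverses damage-kinase phosphorylation, showed 7.64 and 8.25 FPKM untreated against 7.47 and 7.75 FPKM exposed, and these groups overlapped. Cyclin G1, encoded by CCNG1, had 47.1 and 24.6 FPKM untreated and 48.1 and 30.6 FPKM exposed, a difference within the untreated pair. The median regulator differed from the untreated mean by 0.20 (replicate 1) and by -0.09 (replicate 2).

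Among the 6 genes of cell cycle arrest and growth control, CDKN1A and PLK3 were higher in both formaldehyde libraries and PLK2 was lower in both. CDKN1A encodes p21, the inhibitor of cyclin-dependent kinases through which p53 stops cells in G1, and lies on chromosome 6 at 36644237 to 36655116 (hg19). Its level was 31.8 and 48.9 FPKM untreated, then 355 and 49.5 FPKM exposed. Replicate 1 was 8.80 times the untreated mean, and replicate 2 exceeded the higher untreated library by less than 1 FPKM. With group means of 40.3 ± 12.1 and 202 ± 216 FPKM (SD, n = 2 each), the log2 fold change was 1.73 ± 0.94 (SE).

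PLK3, a stress-activated polo-like kinase, had the smallest unadjusted p of the members. It had 3.07 and 4.37 FPKM untreated and 11.9 and 7.65 FPKM exposed, 3.21 and 2.06 times the untreated mean. By limma its log2 fold change was 1.18 ± 0.30 (SE), with an unadjusted p of 0.0107 and an adjusted p of 0.9999. It overlaps TCTEX1D4 on the opposite strand by 82 bases, and TCTEX1D4 stood at 0.11 to 0.86 FPKM. PLK2, the related kinase of centriole duplication, went the other way, at 110 and 174 FPKM untreated and 96.7 and 104 FPKM exposed (log2 fold change -0.46 ± 0.29, SE).

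GADD45A, a stress sensor that binds PCNA and p21, separated the untreated libraries more than the groups. It had 30.3 FPKM in untreated replicate 1 and 185 FPKM in untreated replicate 2, a ratio of 6.09, with 99.7 and 74.5 FPKM in the exposed libraries between them. BTG2, an antiproliferative cofactor of mRNA deadenylation, was likewise split in both groups, at 3.92 and 13.1 FPKM untreated and 15.4 and 4.29 FPKM exposed. ZMAT3, a zinc finger RNA-binding protein, read 2.63 and 1.78 FPKM untreated and 5.22 and 1.95 FPKM exposed, so that only replicate 1 stood above the untreated range. For these 6 genes the median difference was 0.98 in replicate 1 but -0.06 in replicate 2.

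In DNA repair the damage-recognition genes DDB2 and XPC were higher in both formaldehyde libraries, and the polymerase and nucleotide-supply genes were not. DDB2, the damaged-DNA binding subunit of nucleotide excision repair, had 8.94 and 10.4 FPKM untreated and 22.2 and 13.9 FPKM exposed. These are 2.30 and 1.44 times the untreated mean, and the log2 fold change was 0.81 ± 0.28 (SE), with an unadjusted limma p of 0.0352 and an adjusted p of 0.9999. XPC, which opens global-genome repair, was alike in both exposed libraries, at 22.6 and 21.6 FPKM against 16.5 and 17.4 FPKM untreated (log2 fold change 0.36 ± 0.19, SE).

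POLH, the translesion polymerase eta, showed 7.79 and 6.12 FPKM untreated and 8.11 and 5.29 FPKM exposed, so the exposed pair lay outside the untreated pair on both sides. It overlaps GTPBP2 on the opposite strand by 43 bases, and GTPBP2 stood at 35.2 to 50.7 FPKM. RRM2B, the p53-induced subunit of ribonucleotide reductase, had 6.25 and 3.24 FPKM untreated and 8.94 and 4.11 FPKM exposed, overlapping groups. The strand setting of the authors' quantification is not given in the sources used here, so reads of the overlapped stretches cannot be assigned to a strand.

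The genes of the TRAIL death receptors were higher in both formaldehyde libraries, whereas FAS was high in 1 and low in the other. TNFRSF10A (DR4), a death receptor for TRAIL, had 4.92 and 5.89 FPKM untreated and 12.7 and 9.14 FPKM exposed. Its exposed values were 2.34 and 1.69 times the untreated mean, with a log2 fold change of 0.88 ± 0.24 (SE), an unadjusted limma p of 0.0154 and an adjusted p of 0.9999. TNFRSF10B (DR5), the other TRAIL death receptor, read 34.6 and 38.5 FPKM untreated and 62.7 and 46.5 FPKM exposed (log2 fold change 0.55 ± 0.23, SE). It overlaps RHOBTB2 on the opposite strand by 63 bases, and RHOBTB2 stood at 5.57 to 7.05 FPKM.

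FAS, the receptor of FAS ligand, had 2.13 and 2.25 FPKM untreated, a close pair. Formaldehyde replicate 1 reached 8.63 FPKM, 3.94 times the untreated mean, and replicate 2 was at 1.61 FPKM, 0.735 times that mean. The exposed libraries thus lay on opposite sides of the untreated pair, and the log2 fold change was 0.65 ± 0.63 (SE). EDA2R, a receptor for ectodysplasin A2, was listed at 0 in 3 libraries and at 0.11 FPKM in formaldehyde replicate 1, below the filter.

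Apoptosis and survival genes gave 3 members higher in both formaldehyde libraries (PHLDA3, AEN and PERP) of 6 tested. PHLDA3, a PH-domain inhibitor of AKT signalling, had 15.1 and 20.1 FPKM untreated and 54.1 and 23.3 FPKM exposed, 3.07 and 1.32 times the untreated mean. AEN, an apoptosis-enhancing nuclease, showed 14.6 and 10.6 FPKM untreated and 35.5 and 17.6 FPKM exposed, 2.82 and 1.40 times the untreated mean. PERP, a desmosomal membrane protein that also takes part in p53-dependent apoptosis, read 7.53 and 6.27 FPKM untreated and 13.4 and 8.67 FPKM exposed. The log2 fold changes were 0.99 ± 0.44, 0.95 ± 0.38 and 0.58 ± 0.27 (SE).

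The other tested genes with these roles were above both untreated libraries in formaldehyde replicate 1 alone. TRIAP1, a small inhibitor of apoptosis, had 30.4 and 15.7 FPKM untreated and 38.2 and 20.2 FPKM exposed. Its replicate 1 exceeded replicate 2 in both groups, 1.94 times untreated and 1.88 times exposed. RPS27L, a ribosomal protein paralogue, read 70.9 and 54.7 FPKM untreated and 102 and 55.4 FPKM exposed. How any reads shared with close relatives of this gene were handled is not given, which leaves its level uncertain. TP53INP1, a stress protein of autophagy and apoptosis, had 2.48 and 2.42 FPKM untreated and 4.26 and 1.62 FPKM exposed, again 1 exposed library on each side. SPATA18, a regulator of mitochondrial quality control, was below the filter, at 0.12 and 0.06 FPKM untreated and 1.10 and 0.12 FPKM exposed. Its formaldehyde replicate 1 value had bounds of 0.82 to 1.37 FPKM and was 12.1 times an untreated mean close to 0.

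The metabolic and secreted products included the largest difference among the 28 tested members, that of GDF15. GDF15, a stress-induced cytokine of the TGF-beta superfamily, had 1.85 and 2.43 FPKM untreated. Formaldehyde replicate 1 held 42.1 FPKM (bounds 38.6 to 45.5), 19.7 times the untreated mean, whereas replicate 2 held 2.30 FPKM, between the untreated libraries. The exposed mean was 22.2 ± 28.1 FPKM against 2.14 ± 0.41 untreated (SD, n = 2 each), and the log2 fold change of 1.93 ± 1.20 (SE) rested on replicate 1.

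TP53I3 (PIG3), a quinone oxidoreductase, followed the same pattern, with 15.0 and 10.96 FPKM untreated and 72.5 and 14.1 FPKM exposed. That is 5.60 and 1.08 times the untreated mean. FDXR, the mitochondrial ferredoxin reductase, was higher in both, at 61.9 and 31.1 FPKM against 23.6 and 29.9 FPKM untreated, and replicate 2 exceeded the higher untreated library by little. SESN2, a leucine sensor that restrains mTORC1, read 6.91 and 9.87 FPKM untreated and 17.4 and 11.05 FPKM exposed. SESN1, its relative, had 2.93 and 1.83 FPKM untreated and 6.41 and 1.73 FPKM exposed. By role, the median in formaldehyde replicate 1 was 1.19 above the untreated mean for these 5 genes, 1.10 for the 3 tested death receptors, 0.82 for the 6 apoptosis and survival genes and 0.62 for the 4 repair genes. In replicate 2 these medians were 0.12, 0.34, 0.09 and 0.11.

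**Figure D3:**
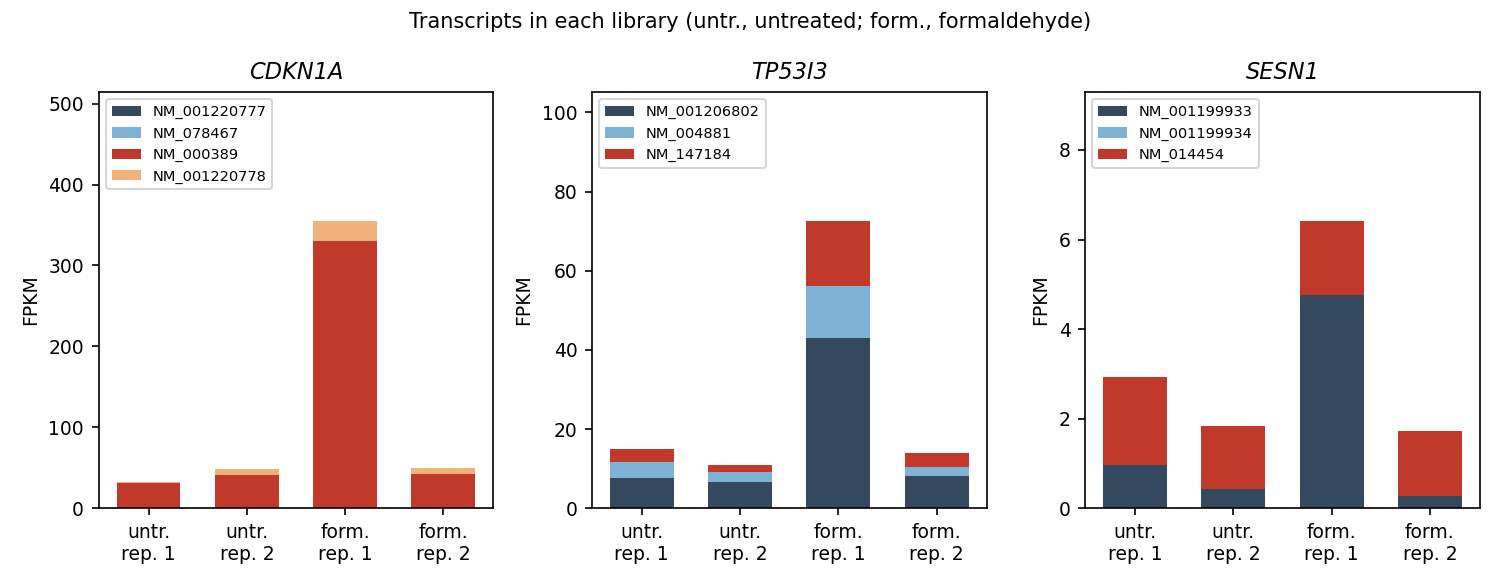
FPKM of CDKN1A, TP53I3 and SESN1 in the 4 libraries, as bars stacked by listed transcript (colours) in the way the authors' software divided the reads; the height of a bar is the level of the gene. For SESN1, the transcript with the downstream start reads 4.75 FPKM in formaldehyde replicate 1 and at most 0.97 FPKM elsewhere, whereas the transcript with the upstream start stays between 1.40 and 1.96 FPKM.

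Within SESN1, on the minus strand of chromosome 6, the 2 transcripts with reads differed by library. NM_001199933, whose start is at 109330758 (hg19), had 0.97 and 0.43 FPKM untreated and 4.75 and 0.27 FPKM exposed. NM_014454, whose start is at 109415708, had 1.96 and 1.40 FPKM untreated and 1.66 and 1.46 FPKM exposed. The first thus made up 74.1% of the SESN1 level in formaldehyde replicate 1 and 15.5% to 33.1% elsewhere. The promoter windows are on another build and were not matched to these transcripts.

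CDKN1A came mainly from NM_000389, at 30.5 and 41.4 FPKM untreated and 329 and 42.8 FPKM exposed, and its transcripts with a start farther upstream stayed at or below 0.60 FPKM in every library. All 3 listed TP53I3 transcripts were highest in formaldehyde replicate 1; NM_001206802 reached 43.0 FPKM there against 6.54 to 8.20 FPKM elsewhere. The division of reads among FAS transcripts that share their ends changed from library to library, NM_000043 taking 99.3% of the level in untreated replicate 1 and 7.48% in untreated replicate 2, so only the sum is used for FAS.

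Of 20 listed p53 family members, activating kinases and other regulators, 19 were tested and 0 passed an adjusted limma p under 0.05. This list mixes activators with genes that act against p53, such as the ubiquitin ligases RCHY1 and RFWD2. Formaldehyde replicate 1 held the highest value of 4 of the 19 (21.1%), near the 26.3% of all genes. In both exposed libraries 5 were lower (26.3%), against 10.7% of all genes, and 1 was higher (5.26%), against 16.2%. Their median difference from the untreated mean was -0.07 in replicate 1 and -0.03 in replicate 2. TP73, a p53 relative, read 3.35 and 3.85 FPKM untreated and 2.55 and 2.56 FPKM exposed. TP63 was listed at 0 in all 4 libraries. CHEK2, a kinase that phosphorylates p53 after DNA breaks, had 12.5 and 11.1 FPKM untreated and 7.85 and 10.3 FPKM exposed.

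**Figure D4:**
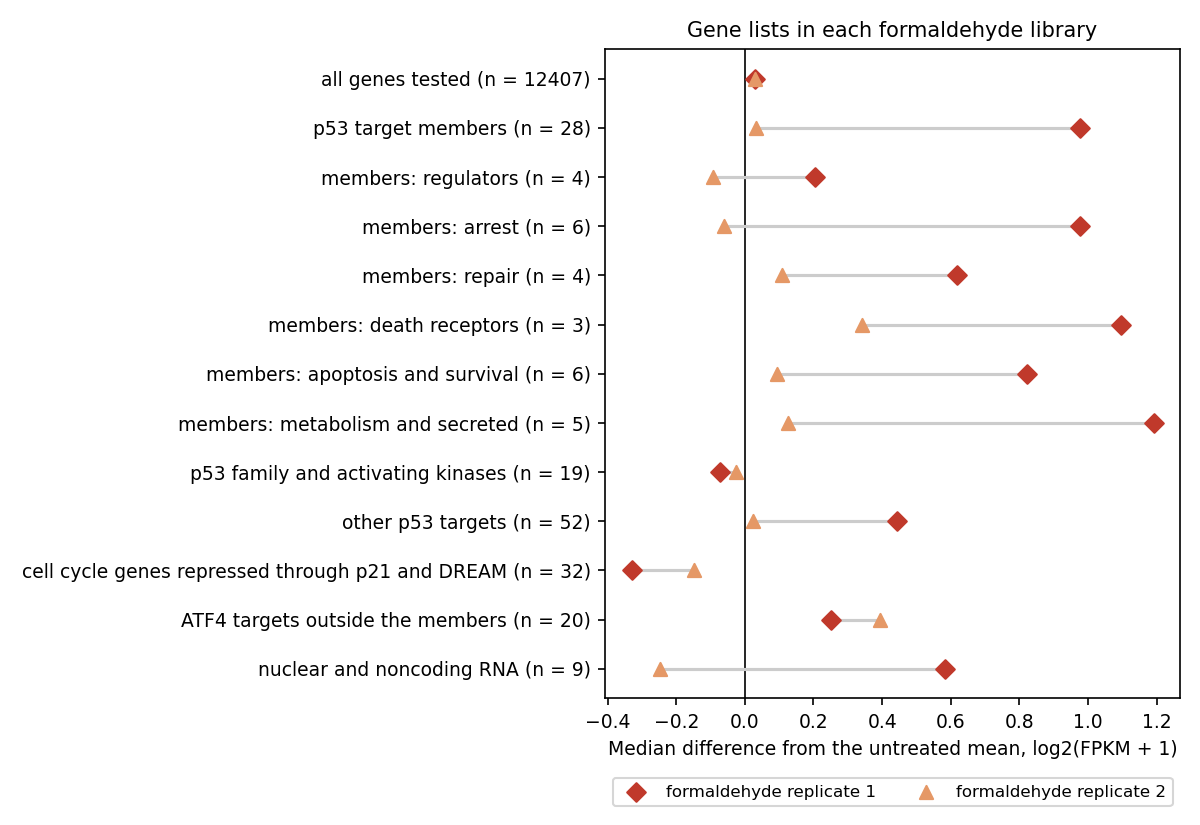
Median difference from the untreated mean, in log2(FPKM + 1), for the members, their roles and other gene lists, with 1 point for each formaldehyde library. The members read 0.98 in replicate 1 and 0.03 in replicate 2, and other p53 targets 0.44 and 0.02. The list of p53 family members, kinases and other regulators read -0.07 and -0.03.

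Further p53 targets outside the 30 were also mostly highest in formaldehyde replicate 1. Of 63 listed symbols, older names included, 59 were found and 52 tested. By limma 0 passed an adjusted p under 0.05, against 0.153% of all genes. An unadjusted p under 0.05 was reached by 2 (3.85%), near the 2.76% of all genes. Formaldehyde replicate 1 held the highest value of 34 of the 52 (65.4%), against 26.3% of all genes. In both exposed libraries 16 were higher (30.8%), against 16.2% of all genes, and 3 were lower (5.77%), against 10.7%. The median difference was 0.44 in replicate 1 and 0.02 in replicate 2. PMAIP1 (NOXA), a BH3-only killer protein, had 18.6 and 20.7 FPKM untreated and 46.9 and 25.6 FPKM exposed. BBC3 (PUMA), another BH3-only protein, had 8.93 and 10.5 FPKM untreated and 17.7 and 12.5 FPKM exposed. TRIM22, an antiviral ubiquitin ligase, read 4.06 and 4.46 FPKM untreated and 11.6 and 6.94 FPKM exposed.

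Cell cycle genes known to be repressed through p21 and the DREAM complex were mostly below the untreated mean in formaldehyde replicate 1. That library also had the highest CDKN1A, and a link was not tested. All 32 listed genes were tested and 0 passed an adjusted limma p under 0.05. In both exposed libraries 11 were lower (34.4%), against 10.7% of all genes, and 0 were higher, against 16.2%. Formaldehyde replicate 1 held the lowest value of 19 of them, against 3234 of all 12407 genes. Untreated replicate 1 held the highest value of 26 (81.3%), against 29.4% of all genes. The median of untreated replicate 1 minus untreated replicate 2 was 0.30, against 0.10 over all genes. The median difference was -0.33 in replicate 1 and -0.15 in replicate 2. MKI67, the proliferation marker Ki-67, had 53.3 and 52.0 FPKM untreated and 31.2 and 41.1 FPKM exposed. NUSAP1, a spindle protein, had 117 and 122 FPKM untreated and 68.8 and 95.1 FPKM exposed.

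Targets of ATF4, a stress factor that also acts on SESN2 and GDF15, had medians above the untreated mean in both exposed libraries. The median difference of the 20 listed genes was 0.25 in formaldehyde replicate 1 and 0.39 in replicate 2. Between the untreated libraries, replicate 1 minus replicate 2 had a median of -0.41, against 0.10 over all genes. The list summed to 831 and 1207 FPKM untreated and 1264 and 1323 FPKM exposed. In both exposed libraries 7 were higher (35%), against 16.2% of all genes, and 0 were lower, against 10.7%. TRIB3, a pseudokinase induced by ATF4, had 21.8 and 27.7 FPKM untreated and 68.3 and 67.5 FPKM exposed, with an adjusted limma p of 0.413 for a log2 fold change of 1.43 ± 0.21 (SE). By limma no gene of the list passed an adjusted p under 0.05, against 0.153% of all genes. An unadjusted p under 0.05 was reached by 4 (20%), against 2.76% of all genes.

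Formaldehyde replicate 1 was the library with the lowest depth, 14.1 M fragments. The nuclear and noncoding RNA list (14 listed, 9 tested) had a median difference of 0.58 in replicate 1 and -0.25 in replicate 2, and its summed level was 474 and 902 FPKM untreated and 875 and 573 FPKM exposed, both exposed sums lying between the untreated ones. GAS5, a noncoding host of small nucleolar RNAs, had 55.1 and 38.4 FPKM untreated and 105 and 56.0 FPKM exposed. The short RNA RMRP, picked after its values were seen, ran from 4.33 FPKM in replicate 2 to 56.9 FPKM in replicate 1. Of the 10 leukocyte markers 3 were tested, and the summed level of the list was 18.8 and 31.7 FPKM untreated and 51.7 and 32.8 FPKM exposed; PTPRC did not exceed 0.02 FPKM. The 10 fibroblast and endothelial markers, 3 of them tested, summed to 445 and 803 FPKM untreated and 285 and 442 FPKM exposed. The 10 epithelial markers, 7 of them tested, summed to 804 and 872 FPKM untreated and 1481 and 1281 FPKM exposed, with a median difference close to equal in the exposed libraries, 0.62 in replicate 1 and 0.61 in replicate 2. The part of depth and of these lists in the members' values was not tested. In bulk RNA fewer cells of a state and less RNA per cell cannot be told apart.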

How the data were processed

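Total RNA of 4 BEAS-2B libraries (2 untreated, 2 with formaldehyde) was sequenced on an Illumina HiSeq, per the labels. Tools listed in the submitters' processing notes are Cufflinks 2.0.2, STAR 2.5.2 and FastQC 0.10.0, with the builds hg19 and GRCh37; how reads were trimmed, how repeats were handled and which strand setting applied is not given in the sources used here. The deposited tables list 40255 RefSeq transcripts with FPKM and its bounds as computed by the authors, per the attributes in the tables. FPKM of transcripts with a gene name were summed by gene; 894 without one, with 1.07% to 1.31% of the FPKM in a library, were not used. Depth was recovered from the bounds of genes with 1 transcript, covers counting error only and entered no test.

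Genes with a mean of at least 1 FPKM were tested on log2(FPKM + 1), where low genes appear to change less than they do, with limma 3.58.1 in R 4.3.3 (lmFit, eBayes with trend; two-sided; no covariate), Benjamini-Hochberg adjusted over 12407 genes at 0.05. The test was checked on simulated data. Plain folds are ratios of FPKM. The members and lists were chosen with earlier results of these data known, so no list was tested. Besides all 30 members, genes were named by the largest absolute moderated t of a list (up to 4); not every one is printed, the results for some genes are not reported here, and the marker, noncoding and p53 family genes named only for their level were chosen after their values were seen. Alternatives changed the pseudocount, the filter, the scaling, the summing over transcripts, transcript length, the replicate block and each library. Promoter sequences are RefSeq's (GRCh38.p14). Tables and figures were made with Python 3.11.15 and matplotlib 3.10.9.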

Additional observations from a re-analysis of the deposited data

How the results depend on the processing

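No member was called by limma under any of the 12 alternatives, with 3 members at an unadjusted p under 0.05 as reported (343 of all genes) and 0 to 13 under the alternatives (182 to 915 of all genes). Of 331 recomputed member fold changes 313 kept their direction, and 16 members had no reversal. MDM4 came to 0.11 with the highest transcript of each gene. The log2 fold change changed sign when a library was left out in 11 members. Their ranges over the 4 omissions were -0.66 to 0.98 for BTG2 (lowest without formaldehyde replicate 1, and -0.60 without untreated replicate 1), -0.29 to 0.62 for CCNG1 (lowest without untreated replicate 2), -1.09 to 1.48 for GADD45A (lowest without untreated replicate 1), -0.33 to 0.20 for POLH (0.09 without untreated replicate 1 and highest without formaldehyde replicate 2) and -0.12 to 0.79 for TRIAP1 (lowest without untreated replicate 2). For the others the lowest value came without formaldehyde replicate 1: FAS -0.29 to 1.59, RPS27L -0.17 to 0.71, RRM2B -0.12 to 0.84, SESN1 -0.29 to 1.15, TP53INP1 -0.40 to 0.61 and ZMAT3 -0.10 to 0.97. A lone library was taken to vary like the other group.

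Leaving out each library in turn, the members higher in all exposed libraries numbered 11 to 24 of 28, where 29.7% to 47.0% of all genes were higher, their median log2 fold change was 0.032 to 0.98, and 31 to 55 genes were called over all genes (19 as reported). With every library kept, 9 (median ratios) to 12 (highest transcript, and no filter) members were higher in both exposed libraries. Over all genes this share was 13.8% to 17.4%. The genes called over all were 0 with no filter (652 at an unadjusted limma p under 0.05) and 1 among genes with a transcript of at least 300 nt. The counts for formaldehyde replicate 1 under each setting were added after seeing the data; 20 (of 23 tested, at a mean of at least 5 FPKM) to 26 (of 30, no filter) members had their highest value there. With the replicate number as a block, 29 genes were called, 0 of them members. In that limma fit 7 members and 915 of all 12407 genes had an unadjusted p under 0.05. Same-numbered libraries had deviations correlated at 0.25 over 2 pairs. Whether they share more than a number was not tested, and the labels do not say.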
